A study of Mus musculus with 14 samples.

Results

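The effect of a junctophilin-2 fragment was followed in mouse ventricles under pressure overload by comparing 4 RNA libraries that received JP2NT after TAC with 4 that received GFP after TAC. The titles call them TAC+NT and TAC+GFP; TAC+JP2NT and Sham+JP2NT are used here for the libraries titled TAC+NT and Sham+NT, whose virus is given as AAV2/9-JP2NT. These 8 libraries are all the TAC libraries among the 14 of the series. The other 6, 3 Sham+GFP and 3 Sham+JP2NT, served here to set a common scale and to show the level without overload. All animals were male C57BL/6N mice, 9 to 10 weeks old at surgery. TAC animals received a trans-aortic constriction, a narrowing of the aortic arch that loads the left ventricle, and sham animals a control operation. At 2 weeks, 30 TAC mice with an ejection fraction of 40 to 60% and 10 sham mice with normal function went on to treatment. Each received a tail-vein injection of 1e12 genomes of AAV2/9, a heart-tropic adeno-associated virus, in 100 µl. The virus carried either JP2NT or, as vector control, green fluorescent protein (GFP), so no group was free of virus. Ventricles were taken 6 weeks after injection, 8 weeks after surgery. The labels used here do not give the promoter in the vector or say whether each library came from 1 animal, and p-values therefore measure the spread between these samples.

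Junctophilin-2, the product of Jph2, tethers the sarcoplasmic reticulum to the transverse tubules of heart muscle cells and so keeps calcium release coupled to excitation. Under stress the calcium-dependent protease calpain cleaves it, and an amino-terminal fragment, JP2NT, enters the nucleus, where it is known to act on transcription of genes of the hypertrophic programme, among them targets of the muscle factor MEF2. Sustained pressure overload is known for a switch to fetal muscle genes, for secretion of natriuretic peptides and for growth of fibrous matrix.

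Before the results, the libraries themselves need describing. Each library held an estimated 8650188 to 14460617 fragments, with the commonest small value of each column taken as that of 1 fragment. Of the values above 0, 1.11 to 2.85% per library were whole multiples of it. The fragment numbers, and the counting noise used below, are therefore approximate. The deposited values had been scaled within each vector and not across them, so all 14 columns were rescaled together. The rescaled value is a scaled fragment count per gene that is not corrected for length, and all values below are on that scale unless log2 is named. Markers of heart muscle cells, a list of 14 genes, summed to 922300 to 1044000 in TAC+GFP and 983200 to 1219000 in TAC+JP2NT. In sham hearts the sum was 1427000 to 1494000, above every TAC library. On principal component 1, which held 50.5% of the variance over 14 libraries, sham scores ran from -41.5 to -34.4 and TAC+GFP scores from 35.2 to 46.0. The scores of TAC+JP2NT replicates 1 to 3 were 23.6, 23.2 and 27.4, and that of replicate 4 was -2.33, nearer to sham than any other TAC library. The mean position of TAC+JP2NT was 21.2 units below that of TAC+GFP, with no overlap (exact permutation test, two-sided, p = 0.0286, the smallest that 4 against 4 can give). Without replicate 4 the gap was 14.4 units, again with no overlap (exact p = 0.0571, the smallest for 4 against 3). Principal component 2, with 7.64% of the variance, set replicates 1 and 2 of each TAC group apart. It placed them at 20.9 and 25.7 in TAC+GFP and at -22.1 and -23.7 in TAC+JP2NT, while replicates 3 and 4 of both groups lay between -9.69 and -0.51. Replicates 1 and 2 were also the closest pair by single genes in each TAC group; their median squared difference was 2.26 times counting noise in TAC+GFP and 2.22 times in TAC+JP2NT, against 3.43 or more for other pairs of TAC+GFP and 3.97 or more for other pairs of TAC+JP2NT. The labels do not say what replicates 1 and 2 share.

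**Figure D1:**
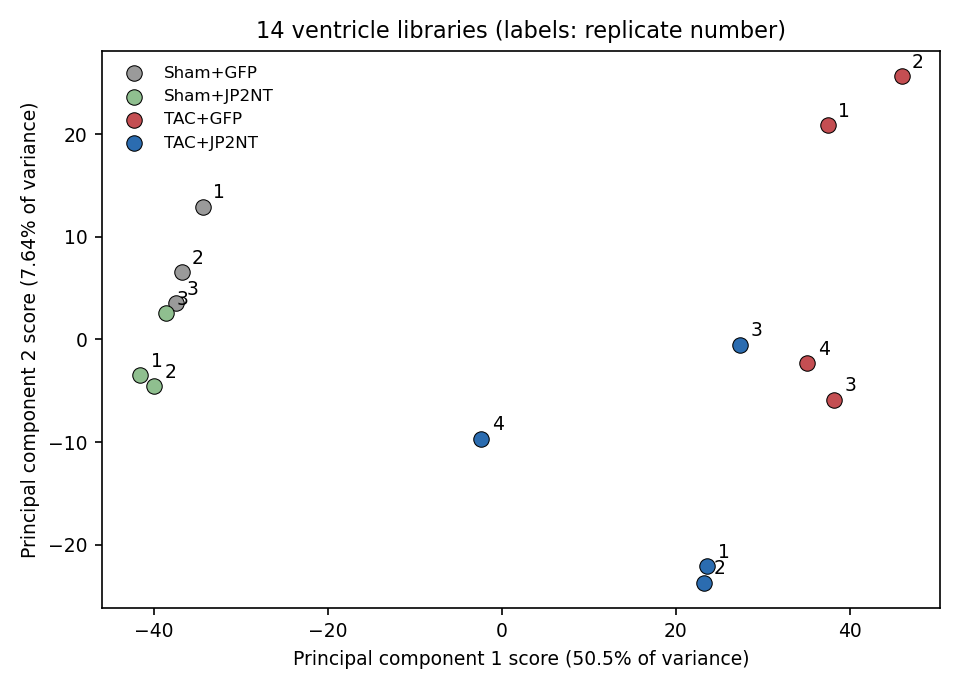
Scores of the 14 libraries on principal component 1 (x axis) and 2 (y axis), coloured by group and numbered by replicate. TAC+JP2NT replicate 4 sits at -2.33 on component 1 between sham and the other TAC libraries, and replicates 1 and 2 of the TAC groups lie at opposite ends of component 2.

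Jph2, the gene from which the fragment derives, did not separate the vectors. Its values in TAC+GFP replicates 1 to 4 were 5966, 5908, 6615 and 6027, and in TAC+JP2NT 6044, 6086, 6326 and 6744, with 6881 to 8177 in sham hearts. The groups overlapped, and the log2 difference, TAC+JP2NT minus TAC+GFP, was 0.04 ± 0.07 (SE; adjusted p = 0.816; exact permutation p = 0.457). Its 95% interval ran from -0.12 to 0.19, and without replicate 4 the difference was 0.01. Whether reads of the vector insert were counted in Jph2 is not given in the sources used here, so this value does not measure the transgene.

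Of 13224 genes tested, 157 (1.19%) passed an adjusted p of 0.05 between the TAC groups, 113 lower (0.855%) and 44 higher (0.333%) with JP2NT. The test was limma's moderated statistic on log2(value + 1) over the 8 TAC libraries, with Benjamini-Hochberg adjustment over all genes. The median log2 difference was -0.75 among the genes called lower and 0.54 among those called higher, and 42 called genes differed by 2-fold or more, 37 of them lower. Both directions were nearly equal before adjustment, with 1273 genes lower (9.63%) and 1098 higher (8.3%) at p under 0.05. The 8 values did not overlap between the vectors in 1406 genes (10.6%), lower with JP2NT in 728 (5.51%) and higher in 678 (5.13%), and in 154 of the 157 called.

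The dependence on TAC+JP2NT replicate 4 was moderate in size and large in count. Without it, 91 genes passed (0.688%), 64 lower (0.484%) and 27 higher (0.204%); 74 of the 157 remained and 83 dropped out, while 17 others passed. None of the 157 changed sign, and their log2 differences were a median 0.96 times those with all libraries. Replicate 4 was the lowest of its group in 55 of the 113 genes called lower (48.7%, against 31.5% of all genes) and the highest in 23 of the 44 called higher (52.3%, against 31.4%). It lay within the sham range in 35 of the 113 (31.0%) and in 6 of the 44 (13.6%), against 41.4% of all genes; for TAC+JP2NT replicates 1 to 3 these counts were 24 to 30 and 6 to 7. Leaving out other libraries moved the count more. It came to 8 genes (0.0605%) without TAC+GFP replicate 1, 16 (0.121%) without TAC+GFP replicate 2, 36 (0.272%) without TAC+JP2NT replicate 1 and 20 (0.151%) without TAC+JP2NT replicate 2. It rose to 233 (1.76%) and 231 (1.75%) without TAC+GFP replicates 3 and 4, and to 277 (2.09%) without TAC+JP2NT replicate 3, which was the highest of its group in 66 of the 113 genes called lower.

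**Figure D2:**
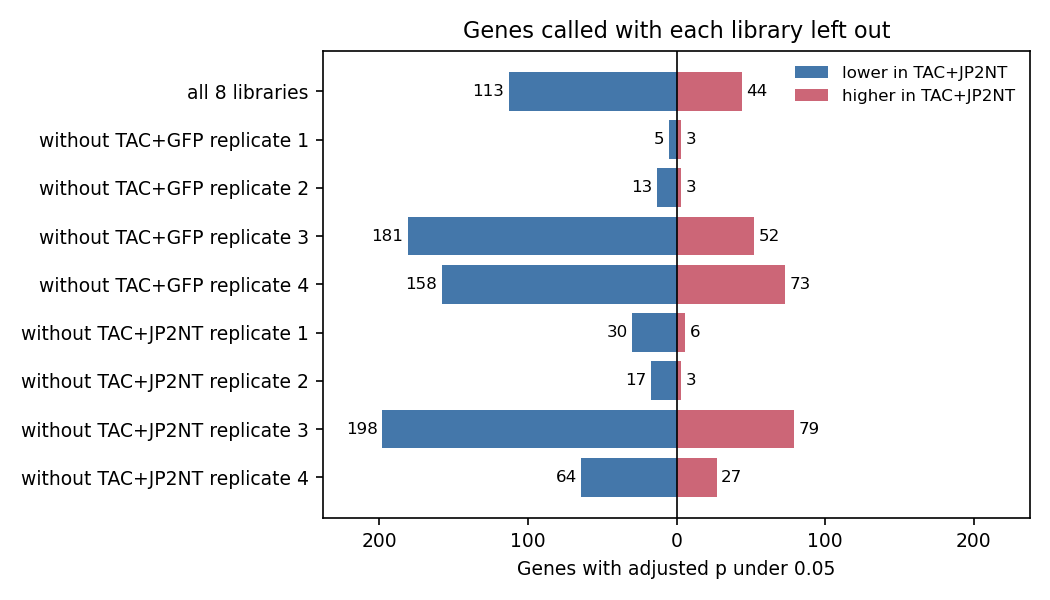
Number of genes with adjusted p under 0.05 (x axis; lower with JP2NT to the left, higher to the right) with all 8 TAC libraries and with each left out (y axis). The count falls to between 8 and 36 without any replicate 1 or 2, is 91 without TAC+JP2NT replicate 4, and is 231 to 277 without each other library.

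The close pairs carried most of the statistical weight. In replicates 1 and 2 of each group alone, 2060 genes passed (15.6%), 155 of the 157 among them. In replicates 3 and 4 alone 0 did (0%; limma; 814 genes at unadjusted p under 0.05), although all 113 and all 44 kept their direction there, with medians of -0.65 and 0.52 against -0.86 and 0.57 in replicates 1 and 2. That direction was partly fixed by the choice of genes on all 8 libraries. When replicates 1 and 2 were averaged into 1 sample per group, 3 genes passed.

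**Figure D3:**
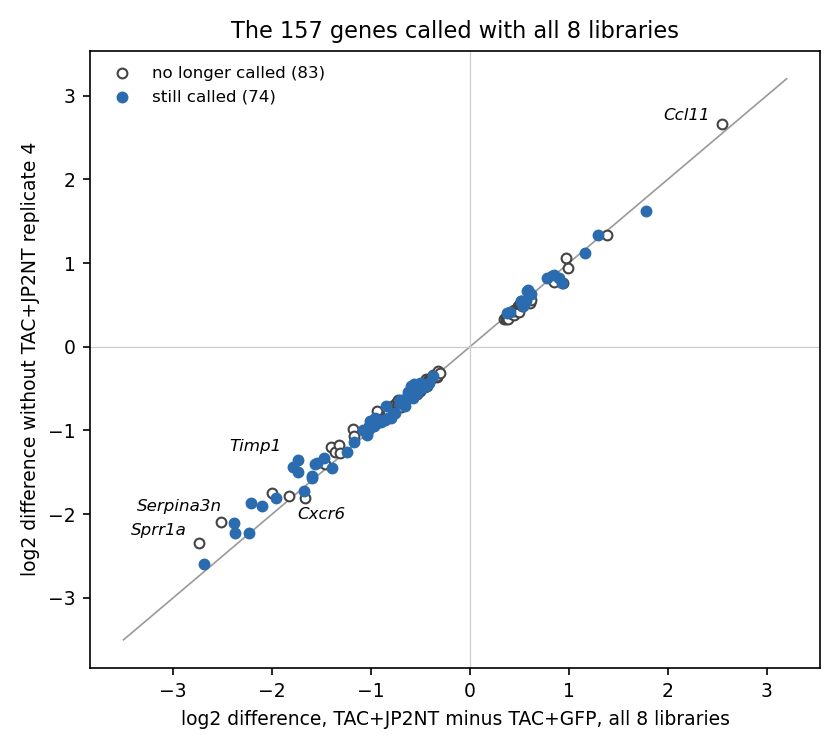
The 157 genes called with all 8 libraries, by their log2 difference with all libraries (x axis) and without TAC+JP2NT replicate 4 (y axis); the line marks equality. Filled points (74) are still called without it and open points (83) are not; all keep their sign.

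Promoters of 4 called genes are shown, 1 higher and 3 lower with JP2NT, because JP2NT is known to act at promoters with MEF2 and TATA elements. Mylk4 encodes a myosin light chain kinase family member, Efhd2 the calcium-binding protein swiprosin-1, Hist1h1c the linker histone H1.2 and Serpina3n a secreted protease inhibitor. Each line gives the 250 bases before the RefSeq start site on GRCm38.p6, 5′ to 3′ on the gene's strand, and capitals mark motif matches.
Mylk4, chr13:32783965-32784214, minus strand: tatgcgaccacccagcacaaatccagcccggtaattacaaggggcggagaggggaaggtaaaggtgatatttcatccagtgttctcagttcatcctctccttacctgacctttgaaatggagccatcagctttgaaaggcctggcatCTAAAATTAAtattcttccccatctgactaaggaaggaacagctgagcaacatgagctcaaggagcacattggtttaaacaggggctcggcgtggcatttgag
Efhd2, chr4:141874921-141875170, minus strand: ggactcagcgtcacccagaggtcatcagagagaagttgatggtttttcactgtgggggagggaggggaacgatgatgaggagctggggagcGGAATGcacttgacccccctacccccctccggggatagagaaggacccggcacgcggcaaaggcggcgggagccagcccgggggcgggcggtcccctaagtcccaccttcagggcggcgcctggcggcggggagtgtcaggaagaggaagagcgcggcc
Hist1h1c, chr13:23738557-23738806, plus strand: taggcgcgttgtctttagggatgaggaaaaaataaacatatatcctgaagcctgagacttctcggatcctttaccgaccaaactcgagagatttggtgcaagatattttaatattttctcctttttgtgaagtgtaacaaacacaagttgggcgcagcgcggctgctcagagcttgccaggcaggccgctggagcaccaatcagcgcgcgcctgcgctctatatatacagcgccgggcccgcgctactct
Serpina3n, chr12:104406458-104406707, plus strand: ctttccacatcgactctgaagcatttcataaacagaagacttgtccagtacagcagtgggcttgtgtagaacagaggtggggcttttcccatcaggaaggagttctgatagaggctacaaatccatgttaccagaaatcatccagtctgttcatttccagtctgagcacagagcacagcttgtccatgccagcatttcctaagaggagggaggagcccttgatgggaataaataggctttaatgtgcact
The capitals in Mylk4 are a MEF2 match 103 to 94 bases before the start, and those in Efhd2 an M-CAT element on the opposite strand at 159 to 154. The windows of Hist1h1c and Serpina3n held none of the motifs searched, which says only that these letters are not in them. The Hist1h1c window holds the run tatatata, which the letters used for the TATA box do not match. Its TATA result therefore rests on the letters chosen. The search covered both strands. CATTCC stood for the M-CAT element, which TEAD factors bind. The GATA element was searched as AGATAA and the TATA box as TATAAA. For AP-1 the letters were TGANTCA, and STAT sites were searched as TTCNNNGAA. The MEF2 element and the CArG box were searched by their usual consensus. Among 27025 RefSeq windows of this length, 12.6% held the M-CAT letters and 3.01% a MEF2 match. For the TATA box, GATA, STAT, AP-1 and CArG searches the shares were 13%, 10.3%, 7.18%, 6.87% and 1.4%. With so many motifs searched, a match to some motif in a window is common. A match is a description of letters and not of binding. No share over the 157 genes is given, because 73.2% of them have a window in the table.

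Of the 56 called genes named here, 25 lost the call without replicate 4. Over all 157 called genes, 8 passed in all 8 fits that leave out 1 library, 8 in 7, 3 in 6 and 14 in 5. Another 38 passed in 4 of these fits, 29 in 3, 34 in 2, 20 in 1 and 3 in 0. Of the 8 that passed in all, 3 were higher with JP2NT (Scn4b, Mylk4, Abcc9) and 5 lower (Lgals3, Cxcr6, Efhd2, Eif4ebp1, Hist1h1c). With replicates 1 and 2 averaged into 1 sample per group, Scn4b, Mylk4 and Lgals3 still passed (adjusted p = 0.0108, 0.0421 and 0.0421) and the other 5 did not (adjusted p from 0.0754 to 0.104).

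Scn4b (chr9:45138395-45154152) encodes the β4 subunit of the cardiac sodium channel. Its values were 257, 164, 226 and 240.0 in TAC+GFP and 544, 592, 522 and 499 in TAC+JP2NT, against 996 to 1097 in sham hearts. Every JP2NT library was above every GFP library, and below every sham library. The log2 difference was 1.30 ± 0.13 (SE, n = 4 per group; limma adjusted p = 0.00498) and 1.33 without replicate 4, which held the lowest of the 4 values. Mylk4 (chr13:32700834-32783954), whose MEF2 match is shown above, rose from 1038, 1148, 1016 and 1094 to 1854, 1879, 1971 and 2323, with 4380.3 to 4599 in sham. Here replicate 4 was the highest, and the log2 difference of 0.90 ± 0.08 (adjusted p = 0.00462) became 0.82 without it. Abcc9 (chr6:142587862-142702315) encodes SUR2, the regulatory subunit of ATP-sensitive potassium channels, and marks pericytes as well as heart muscle. It measured 2291, 2232, 2167 and 1980.4 with GFP and 3219, 3224, 3061 and 3357 with JP2NT (log2 difference 0.57 ± 0.07, adjusted p = 0.00657); sham values of 3902 to 5493 lay above both groups.

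Lgals3 (chr14:47367751-47386160) encodes galectin-3, a sugar-binding protein made by macrophages and injured tissue. It read 279, 370.1, 380.4 and 515 in TAC+GFP and 98.8, 143, 150.2 and 113 in TAC+JP2NT, against 59.1 to 73.6 in sham. The log2 difference was -1.59 ± 0.19 (adjusted p = 0.00609), and -1.54 without replicate 4. Cxcr6 (chr9:123806475-123811760), a chemokine receptor best known on T cells, fell further, from 117, 116, 77.0 and 89.2 to 35.7, 23.4, 24.5 and 17.6 (log2 -1.96 ± 0.23, adjusted p = 0.00609). Sham hearts held 0.83 to 4.98, so all 8 TAC values exceeded sham. Of 12 T and NK cell markers listed, Cd4 alone was high enough to test and was not called, and their sum was 46.0 to 67.5 in TAC+GFP and 30.5 to 53.1 in TAC+JP2NT. Cxcr6 overlaps Fyco1 on the other strand, and whether the counting used strand is not given in the sources used here, so reads of that gene may be included. The same limit holds for Mylk4 with Gm27342 and Abcc9 with 5330439B14Rik.

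Efhd2 (chr4:141858142-141874920) stood at 1647, 1848, 1209 and 1406 with GFP and 597, 681, 797 and 610.2 with JP2NT, and at 384 to 449 in sham hearts (log2 difference -1.18 ± 0.13, adjusted p = 0.00609). The JP2NT values lay between the other groups without touching either. Eif4ebp1 (chr8:27260329-27276674) encodes 4E-BP1, a repressor of cap-dependent translation. Its 4 GFP values, 1348, 1342, 1094 and 1219.8, exceeded the sham range of 668 to 926, and its JP2NT values, 682, 719, 760.2 and 786, lay inside it. The log2 difference was -0.76 ± 0.08 (adjusted p = 0.00609). Hist1h1c (chr13:23738808-23740367) encodes a linker histone whose main transcript lacks a poly(A) tail although these libraries were poly(A)-selected. It fell from 475, 443, 491 and 387 to 209, 250.0, 261 and 238, below the sham range of 273 to 309 (log2 -0.90 ± 0.10, adjusted p = 0.00609). Leaving out replicate 4 moved the log2 difference of these 3 genes to -1.13, -0.79 and -0.90.

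**Figure D4:**
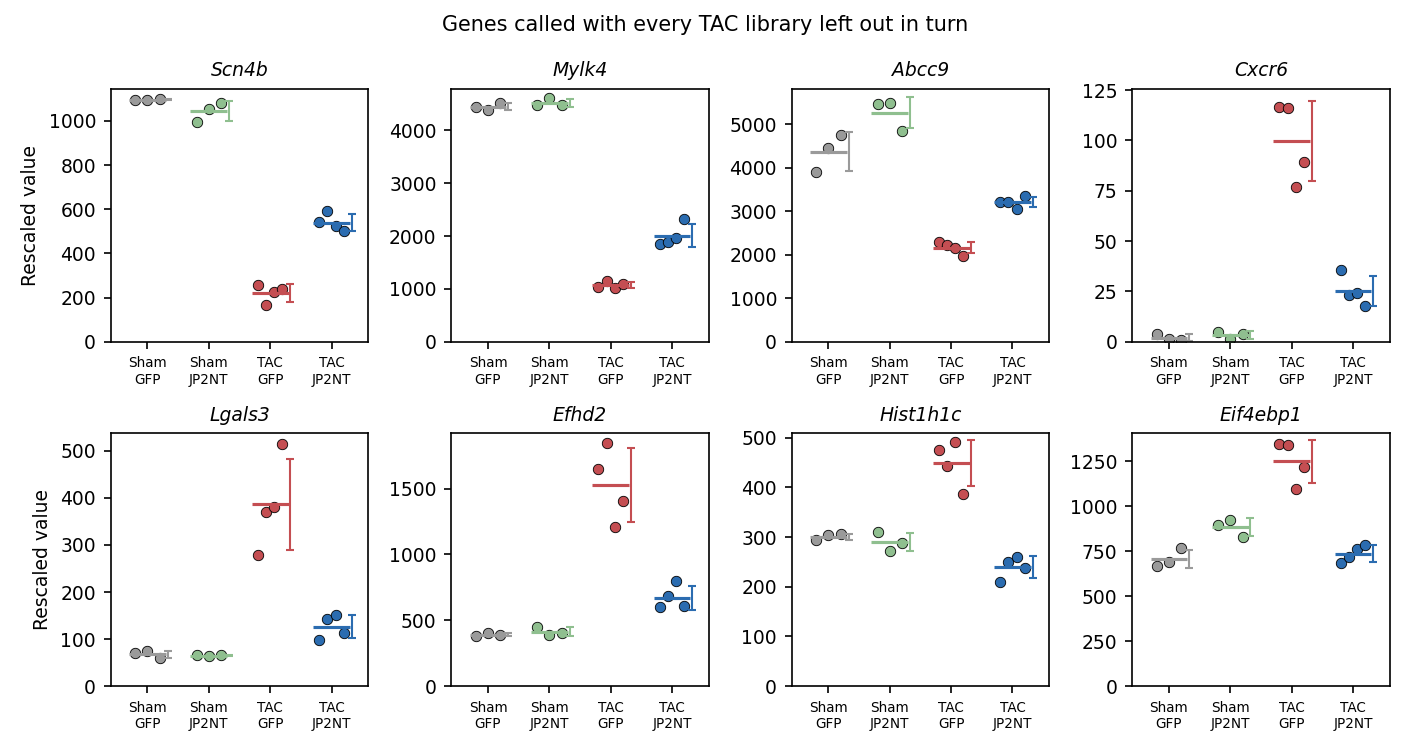
Rescaled values (y axis, from 0) in every library, by group (x axis), of the 8 genes that passed whichever TAC library was left out; horizontal lines are group means and error bars the SD. In each panel the 4 TAC+JP2NT points do not overlap the 4 TAC+GFP points; Scn4b, Mylk4 and Abcc9 are higher and the other 5 lower.

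In the hypertrophic stress list, 4 of 16 genes tested were called lower and none higher, where 0.855% of all genes were called lower and 0.333% higher; these shares are the background for each list count that follows. Of the 16, 13 had a log2 difference below 0 and 3 above, and the list median was -0.59 on the log2 scale, against -0.003 over all genes (-0.52 without replicate 4). Nppb, encoding B-type natriuretic peptide, measured 30850.1, 35314, 30878 and 27311 in TAC+GFP and 19038, 12069, 17984 and 15187 in TAC+JP2NT, with 1536 to 3889 in sham. These groups did not overlap, and the log2 difference was -0.97 ± 0.14 (adjusted p = 0.0155). Nppa, encoding atrial natriuretic peptide, read 90238, 109701, 40729.8 and 82833 with GFP and 20860.5, 26098, 43869 and 24421 with JP2NT. TAC+GFP replicate 3 fell below TAC+JP2NT replicate 3, so the groups overlapped. Its log2 difference of -1.46 ± 0.30 passed (adjusted p = 0.0464) but passed in 2 of 8 leave-outs only, and without replicate 4 it was -1.40 (adjusted p = 0.0819). The atrial marker list, to which Nppa belongs, varied widely. Its summed level, 45680 to 112400 in TAC+GFP and 23030 to 46230 in TAC+JP2NT, was mostly Nppa itself. Of its 8 genes, 6 had a log2 difference above 0 and 2 below. The list median was 0.09, and -0.36 without replicate 4, which was the highest of its group in 7 of the 8. The part of atrial transcripts in the Nppa result was not tested. Ctgf, a matricellular protein of overloaded myocytes and fibroblasts, was lower at 4145, 3807, 4166 and 2651 against 12193, 14703, 7347 and 7901 (log2 -1.47 ± 0.22, adjusted p = 0.0155). Uchl1, a deubiquitinating enzyme, was also called lower (log2 -0.96 ± 0.17).

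The main ventricular myosin heavy chains, Myh7 and Myh6, did not pass. Myh7, the slow β isoform, was 94029, 95853, 58182 and 87282 with GFP and 51129, 36976, 56927 and 57073 with JP2NT, against 1911 to 3186 in sham. The groups did not overlap, but TAC+GFP replicate 3 lay close above the highest JP2NT value, and the log2 difference was -0.72 ± 0.19 (adjusted p = 0.087). Myh6, the fast α isoform, was 166553, 144687, 201910 and 163179 and 185571, 181655, 226430 and 335385, overlapping (log2 0.42 ± 0.21, adjusted p = 0.321). Replicate 4 was the highest of all TAC libraries for Myh6, and without it the difference was 0.23. Skeletal actin, Acta1, gave no stable direction: its log2 difference was 0.09 ± 0.31 and turned to -0.26 without TAC+GFP replicate 3. The stretch-responsive cofactor Ankrd1 was -0.41 ± 0.17 (adjusted p = 0.232), with TAC+JP2NT replicate 3 inside the GFP range.

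Within the sarcomere and Z-disc list, 2 of 25 genes were called lower and none higher (median -0.12). Desmin, encoded by Des, the intermediate filament that links Z-discs, fell from 43936, 44574, 33177 and 39106 to 25945, 24824, 29600.4 and 26525. Sham hearts held 26686 to 29196, among the JP2NT values (log2 -0.58 ± 0.11, adjusted p = 0.0417). Synpo2l, a Z-disc protein, was -0.73 ± 0.15 on the log2 scale (adjusted p = 0.044). Neither was called without replicate 4 (adjusted p = 0.065 and 0.071). Among 18 fetal, atrial and skeletal isoforms tested, Myh7b was the 1 called, at 561, 586, 633 and 998 with JP2NT against 336, 287, 325 and 479. Replicate 4 alone reached 998 there, and without it the log2 difference fell from 0.95 to 0.76 (adjusted p = 0.0554).

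The ion handling genes called were higher with JP2NT. Beside Scn4b, 1 of 13 sodium channel genes, and Abcc9, 1 of 24 potassium and pacemaker channel genes, the calcium cycling list had Hrc called of 25. Hrc, the histidine-rich calcium-binding protein of the sarcoplasmic reticulum, was 6813, 5971, 7472 and 6893 with GFP and 8458, 9089.8, 8883 and 10569 with JP2NT. No value overlapped, though all lay under the sham range of 16882 to 17764 (log2 0.45 ± 0.09, adjusted p = 0.0494; 0.071 without replicate 4). Atp2a2, the calcium pump SERCA2a, did not pass (log2 0.35 ± 0.14, adjusted p = 0.231). Tmem65, an intercalated disc protein, was called at 0.37 ± 0.07 (adjusted p = 0.0417), but not without replicate 4 (adjusted p = 0.068). No gene was called among 14 calcium channel genes, 16 junctophilin, T-tubule and calpain genes, 12 MEF2 and class IIa HDAC genes, or 15 calcineurin and NFAT genes, with list medians of 0.07, -0.00, 0.08 and 0.02. In the potassium channel list replicate 4 was the highest of its group for 16 of 24 genes.

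In the activated fibroblast list 4 of 21 genes were called lower (0.855% of all genes) and none higher, with a median of -0.62 that shrank to -0.47 without replicate 4, the lowest of its group in 16 of 21. Cthrc1, a secreted protein of activated fibroblasts, was 39.5, 46.7, 48.3 and 30.9 in TAC+GFP and 12.5, 6.29, 6.19 and 4.91 in TAC+JP2NT. The groups were far apart (log2 -2.38 ± 0.30, adjusted p = 0.00881) and the call held in 7 of 8 leave-outs. In the limma fit over all 4 groups with a spread per group it was lost (adjusted p = 0.0696). At values this low with JP2NT, the size of the difference depends on the pseudocount. Comp, cartilage oligomeric matrix protein, fell from 509, 602, 799 and 436 to 136, 167, 308 and 178 (log2 -1.60 ± 0.24, adjusted p = 0.0155). Lox, the lysyl oxidase that cross-links collagen and elastin, was 673, 839, 401 and 319 against 133, 112, 245 and 75.6. Replicate 4 held the lowest Lox value, and the log2 difference went from -2.00 ± 0.36 (adjusted p = 0.0282) to -1.75 (adjusted p = 0.0533) without it. Ltbp2, a microfibril protein, was called (-1.41 ± 0.29) although TAC+JP2NT replicate 3, at 860, exceeded TAC+GFP replicate 4, at 852. It was not called without replicate 4 (adjusted p = 0.0796), which left 2 of the 21 called.

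Collagen chains did not reach the threshold. None of 22 tested was called, with a median of -0.29 and -0.21 without replicate 4, which was the lowest of its group in 17. Col1a1 was 3396, 3699.7, 2539 and 2106 with GFP and 1984, 2023, 2395 and 1234 with JP2NT, and Col3a1 7924, 8903, 6089.5 and 4888 and 4139.5, 4303, 5872 and 2871. Both overlapped through TAC+JP2NT replicate 3 (log2 -0.62 ± 0.21 and -0.70 ± 0.22, adjusted p = 0.16 and 0.129). Postn, periostin, behaved alike, with 6050.4, 7021, 3516 and 3852 against 2542, 2523, 3719 and 1149; its log2 difference of -1.10 ± 0.32 (adjusted p = 0.113) became -0.77 without replicate 4.

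Other matrix lists had few calls, all lower. The elastic fibre list had 2 of 17 (median -0.43), with Fbln5, fibulin-5, at 569, 588, 530.0 and 512 and 390.0, 402, 403 and 366, inside the sham range with JP2NT (log2 -0.49 ± 0.08, adjusted p = 0.0169). The cross-linking list had Lox and Loxl3 of 16, the latter at -1.02 ± 0.18. In the matricellular list 2 of 18 passed, Comp and Ctgf, with a median of -0.70 and -0.66 without replicate 4. Fstl3, an activin antagonist, was called in the TGF-β list with Ltbp2 (2 of 22; Fstl3 log2 -1.32 ± 0.23). The adhesion list had Zyx, Itgb5 and Itga5 (3 of 21; log2 -0.51, -0.49 and -0.44), that is zyxin and the integrin chains β5 and α5. None of these 3 was called without replicate 4, when the 1 member called was Itga6, integrin α6, which was higher with JP2NT (log2 0.42, adjusted p = 0.0384). Timp1, the 1 called of 19 metalloproteinase and inhibitor genes, measured 636, 736, 429 and 384 in TAC+GFP and 179.9, 189, 258 and 70.3 in TAC+JP2NT. Replicate 4, at 70.3, fell inside the sham range of 31.2 to 86.3, well under the next lowest JP2NT value. Its log2 difference moved from -1.73 ± 0.35 to -1.35 without that library and still passed (adjusted p = 0.0439 and 0.0326); Timp1 lies against Syn1 on the other strand.

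**Figure D5:**
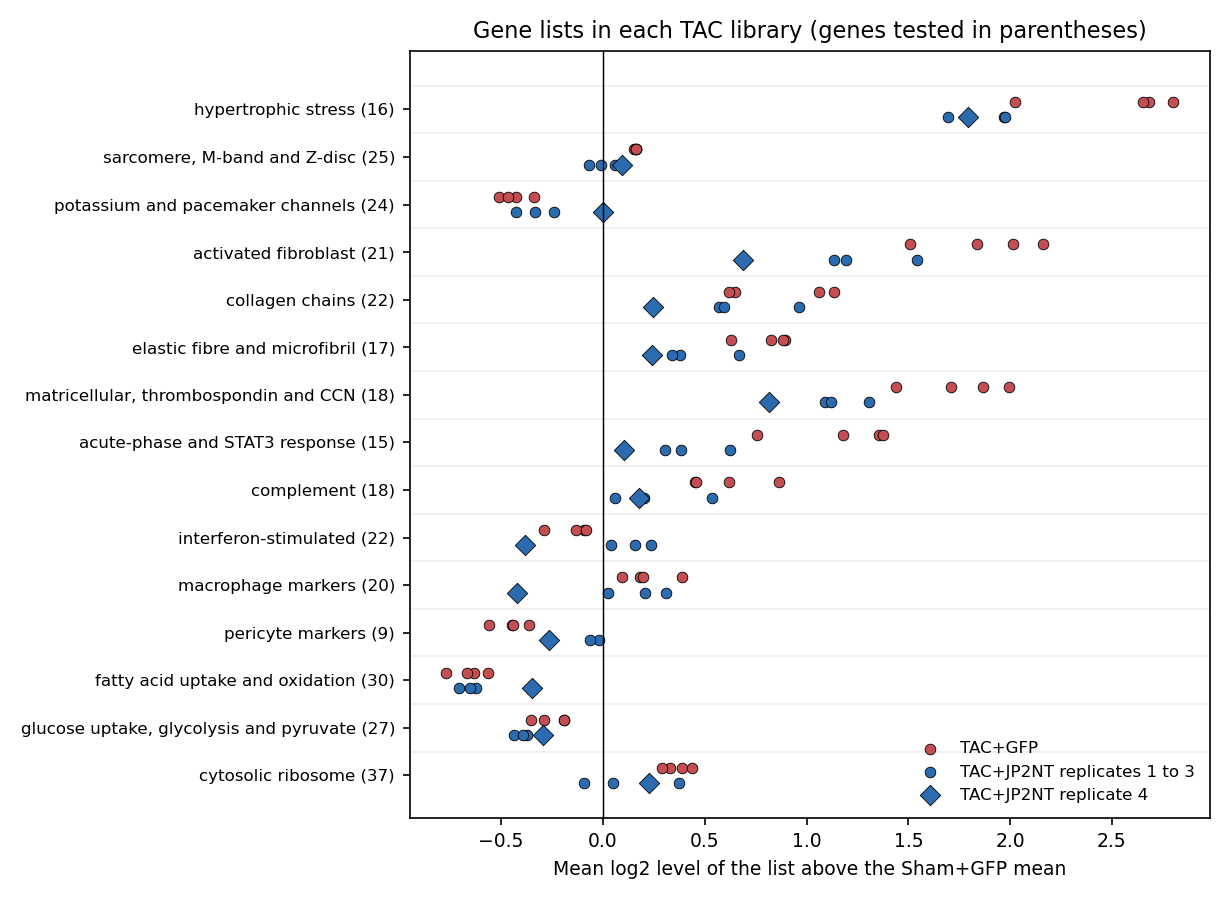
Mean log2 level of each gene list above its Sham+GFP mean (x axis) in each TAC library, for 15 lists (y axis, genes tested in parentheses); diamonds mark TAC+JP2NT replicate 4. TAC+JP2NT libraries lie below TAC+GFP libraries without overlap for the hypertrophic stress, sarcomere, matricellular and acute-phase lists. They lie above TAC+GFP libraries without overlap for the pericyte list. Replicate 4 stands apart from replicates 1 to 3 for the interferon, macrophage and fatty acid lists.

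Acute-phase genes, induced in many tissues through STAT3, were lower with JP2NT in 3 of 15 tested, none higher (median -0.42, and -0.17 without replicate 4). Serpina3n fell from 1797, 2231, 1375 and 952 to 246, 371, 469 and 164, and replicates 1 and 4 of TAC+JP2NT lay in the sham range of 140.1 to 276. The log2 difference was -2.38 ± 0.32 (adjusted p = 0.0125), and -2.11 without replicate 4. Serpina3n has near-identical neighbours in its gene cluster, so its share of reads is uncertain. Lcn2, lipocalin-2, was 188, 211, 123 and 65.4 against 30.2, 22.4, 31.5 and 27.6, where all 4 JP2NT values were close together (log2 -2.23 ± 0.31, adjusted p = 0.0138). The third of them was Timp1.

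Complement had 2 of 18 genes called, both lower. C3, the central component, was 2808, 3292, 4432 and 3705 with GFP and 1811, 2414, 2309 and 2104 with JP2NT, the latter all below the sham range of 2654 to 2814 (log2 -0.71 ± 0.13, adjusted p = 0.0392). Cfb, factor B, was -1.31 ± 0.25 (adjusted p = 0.0367). Neither was called without replicate 4 (adjusted p = 0.0652 and 0.065). Clu, clusterin, and Fgl2, a prothrombinase-like protein, were singled out after their values were seen. Clu fell from 22288, 24848, 14819 and 18358 to 6802, 7786, 10636 and 8446 (log2 -1.25 ± 0.17, adjusted p = 0.0127), and Fgl2 by 1.08 ± 0.14 (adjusted p = 0.00881); each passed in 7 of 8 leave-outs.

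A pair of immune genes went the other way. Rsad2, an antiviral protein, was the 1 called of 22 interferon-stimulated genes. It measured 293, 294, 309 and 235 with JP2NT against 210.1, 156, 195 and 197 with GFP (log2 0.58 ± 0.12, adjusted p = 0.0494). Its call held in 1 of 8 leave-outs, the fit without replicate 4 (log2 0.66, adjusted p = 0.0326). Replicate 4 opposed the interferon list: it was the lowest of its group in 20 of 22 genes, and the list median rose from 0.24 to 0.33 without it. Ccl11, the eosinophil chemokine eotaxin, was 1.77, 1.80, 2.08 and 2.01 in TAC+GFP, about 2 fragments per library, and 28.5, 28.4, 6.11 and 12.7 in TAC+JP2NT, against 38.3 to 45.2 in sham. It passed (adjusted p = 0.0404; 0.0623 without replicate 4), but at so few fragments its size depends on the pseudocount. Csf2rb2, a cytokine receptor subunit outside these lists, was lower at -1.56 ± 0.27.

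Few cell type markers were called. In bulk tissue, fewer cells of a type and less RNA per cell cannot be told apart. Of 20 macrophage markers 1, Lgals3, was called; their sum was 6147 to 7596 in TAC+GFP and 4473 to 7942 in TAC+JP2NT. Replicate 4 was the lowest of its group in 16 of the 20, and their median moved from -0.12 to 0.04 without it. Fibroblast markers had no call in 12 and overlapping sums (27710 to 32390 and 30390 to 32630). All 9 pericyte markers lay higher with JP2NT, and Abcc9 passed. Their sums were 12560 to 15330 against 9956 to 11760 in TAC+GFP, with no overlap, and the part of these cells in the Abcc9 result was not tested. Notch3, a pericyte and smooth muscle receptor chosen after its values were seen, missed the threshold (log2 0.40 ± 0.09, adjusted p = 0.0515). Of 9 smooth muscle markers, 6 lay above 0 with a list median of 0.24, and Des, itself abundant in heart muscle, was the 1 called, lower. The summed level, 29260 to 33870 with JP2NT against 37150 to 48660 with GFP, went the other way from the median. Most of that sum was Des itself. Plvap, which forms diaphragms in endocardial and capillary endothelium, was 254, 284, 437 and 272 with GFP and 150.4, 165, 186 and 134 with JP2NT (log2 -0.94 ± 0.17, adjusted p = 0.028; 0.058 without replicate 4), 1 of 5 endocardial markers. The endocardial sums, 1819 to 2202 with JP2NT and 2393 to 3864 with GFP, did not overlap. Endothelial markers had no call in 12; Pecam1 and Kdr, named after their values were seen, were -0.18 ± 0.09 and 0.23 ± 0.08. Lists for lymphatic, B cell, neutrophil, mast cell, erythroid, adipocyte, Schwann, epicardial, skeletal muscle and platelet markers had no call.

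Fuel genes mostly did not differ. None of 30 fatty acid genes, 23 tricarboxylic acid cycle genes, 39 nuclear respiratory chain genes, 30 mitochondrial ribosome genes or 19 branched-chain amino acid genes was called. Their medians were 0.10, 0.04, -0.01, 0.03 and 0.08. Replicate 4 was the highest of its group in 25 of the 30 fatty acid genes and in all 23 of the tricarboxylic acid cycle genes, and without it those 2 medians were 0.04 and -0.05. Fabp3 and Ckm, the abundant fatty acid binding protein and muscle creatine kinase, had log2 differences of 0.08 ± 0.11 and 0.23 ± 0.11, neither called. In the glucose list 3 of 27 were called, all lower (median -0.15). Slc2a1, the glucose transporter GLUT1, fell from 498, 595, 318 and 405 to 230.1, 238, 240.4 and 223 (log2 -0.92 ± 0.16, adjusted p = 0.025). Eno1, enolase 1, was 1924, 2117, 2012 and 2159.6 with GFP and 1479, 1529, 1400.4 and 1549.9 with JP2NT, all under the sham range of 2226 to 2583 (log2 -0.46 ± 0.07, adjusted p = 0.0145). Hk1, hexokinase 1, was -0.43 ± 0.08 (adjusted p = 0.0404). Of these 3, Eno1 alone passed without replicate 4.

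Stress and protein turnover genes added single calls. In the integrated stress response list 2 of 16 were lower, Eif4ebp1 and Ppp1r15a, the latter encoding GADD34, which restarts translation. Ppp1r15a was 1149, 1378, 884 and 1003 against 539, 629, 608 and 619.5 (log2 -0.86 ± 0.12, adjusted p = 0.0138) and passed in 7 of 8 leave-outs. Gpx3, the secreted glutathione peroxidase, was the 1 called of 25 antioxidant genes, at 3737, 5056, 4697 and 4777 with JP2NT and 7657, 8599, 7103 and 7746 with GFP (log2 -0.77 ± 0.10, adjusted p = 0.0106). Ier3, an early response gene, was 1 of 20 (log2 -0.82 ± 0.13, adjusted p = 0.0212). Every one of 37 cytosolic ribosomal protein genes had a log2 difference below 0 (6686 of 13224 over all genes), with a median of -0.19, yet Rpl3 alone was called (6057, 6343, 5319.5 and 5848 to 4544, 3943, 4046 and 4238; log2 -0.49 ± 0.08, adjusted p = 0.0191). The mean of that list in TAC+JP2NT replicate 1 lay within the TAC+GFP range, and ribosomal genes have many processed copies that share reads. Single calls in the proteasome (Psmd8, -0.31 ± 0.06) and lysosome lists (Cd63, -0.33 ± 0.07) were small, as was Cpox, the coproporphyrinogen oxidase of haem synthesis, higher at 0.45 ± 0.08. No cell cycle gene was called of 26 tested; replicate 4 was the lowest of its group in 24, and the list median turned from -0.05 to 0.11 without it.

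Further called genes with large differences lay outside the lists. Sprr1a, a small proline-rich protein induced in stressed myocytes, was 435, 447, 99.9 and 254 in TAC+GFP and 39.8, 33.9, 101 and 16.7 in TAC+JP2NT. TAC+GFP replicate 3 fell just under TAC+JP2NT replicate 3, and the log2 difference of -2.73 ± 0.54 (adjusted p = 0.0422) passed in 2 of 8 leave-outs. Star, the mitochondrial cholesterol carrier, fell from 336, 426, 203 and 248 to 58.9, 61.5, 136 and 29.5, against 3.47 to 10.6 in sham (log2 -2.22 ± 0.38, adjusted p = 0.025). Replicate 4 was the lowest there and the call remained without it (log2 -1.87, adjusted p = 0.0326). Igfbp3, a carrier of insulin-like growth factors, was lower at -1.67 ± 0.34. Among genes higher with JP2NT, Ky, a muscle protease-like Z-disc protein, rose from 94.9, 55.8, 106 and 172 to 252, 256, 245 and 288 (log2 1.38 ± 0.26, adjusted p = 0.0379; 0.0679 without replicate 4). Plxnb1, a semaphorin receptor, was 261, 227, 298 and 275 against 465, 471, 415 and 718 (log2 0.93 ± 0.16, adjusted p = 0.0234). All of its TAC values were below the sham range of 1116 to 1164. Gal3st3, a sugar sulfotransferase, was higher at 1.16 ± 0.16.

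Some genes set replicate 4 apart from its own group by 2-fold or more beyond the nearest of replicates 1 to 3. Among 6873 genes with a mean of at least 200, this held for 13, of which 4 were higher and 9 lower. Irs2, an insulin receptor substrate, was 493 in replicate 4 and 113 to 159 in the others. Ces1d, a lipid carboxylesterase, was 1207 against 330 to 528, Nr4a1, an immediate early nuclear receptor, 1617 against 269 to 710, and Wnk2, a kinase, 1003 against 466 to 490. Sham hearts held 1396 to 2226 for Ces1d and 1598 to 1752 for Wnk2, above all TAC libraries. The lower genes were Timp1, Hmox1, Mob1b, Meox1, Postn, Col8a1, Kif5b, Eea1 and Mgat4a. Meox1, a transcription factor of activated fibroblasts, was 289.9 against 693 to 911, and Kif5b, a kinesin motor, 1396 against 2891 to 3052, with 690 to 812 in sham. Timp1 alone of the 13 was called between the vectors. Conversely, 17 genes that did not pass with all 8 libraries passed without replicate 4. Nrp2, a co-receptor for semaphorins and VEGF, was 1008, 975, 849 and 569 with JP2NT and 670.1, 603, 633 and 652 with GFP. Its difference rose from 0.38 (adjusted p = 0.226) to 0.56 (adjusted p = 0.0265). Col6a3 and Cmklr1, a collagen VI chain and the chemerin receptor, went from 0.36 to 0.52 and from 0.35 to 0.61. Scml4 went from 0.58 to 1.01 (adjusted p = 0.0364). In these 4 genes, replicates 1 to 3 lay above every GFP library and replicate 4 below them all.

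The same vectors were compared in sham hearts, whose difference from the TAC result is the interaction of vector and surgery. There, 0 genes passed (0%; limma over all 4 groups, Sham+JP2NT replicates 1 and 2 averaged because they differed by little more than counting noise; 560 at unadjusted p under 0.05). The median log2 difference in sham hearts was -0.04 over the 113 genes called lower under TAC and 0.01 over the 44 called higher. The vector effect itself differed between TAC and sham in 10 genes (0.0756% of 13224), all 10 of them among the 157; this test shares the TAC libraries with the comparison above. The 10 were Scn4b, Mylk4, Eif4ebp1, Efhd2, Hist1h1c, Gpx3, Cpox, Gal3st3, Retreg1 and Rtn4r. Retreg1, an endoplasmic reticulum autophagy receptor, and Rtn4r, the Nogo receptor, are named only for this result. Retreg1 was 4807, 5435, 4004 and 4396 in TAC+GFP and 2764, 2666, 3072 and 3287 in TAC+JP2NT, against 3056 to 4134 in sham. Rtn4r, at 10.4, 9.18, 7.15 and 10.7 and 33.9, 35.2, 23.9 and 48.2, had the largest interaction of the 10, 2.6 (adjusted p = 0.0247), with widely spread sham values of 55.2 to 180.2. For Nppb the vector difference was -0.73 in sham hearts and -0.97 under TAC, and the interaction did not pass (-0.24, adjusted p = 0.793).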

How the data were processed

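Poly(A)-selected, stranded RNA libraries of mouse ventricles were sequenced on a NovaSeq, per the labels' protocols. FastQC 1.0.0, STAR 2.6.1a, Salmon and mm10 are named, per the submitters' processing notes. The deposited signal values are taken here as gene counts scaled within each vector, as read from the file itself. They are not whole, and a size factor computed within each vector came to 1 in every library. With the commonest small value of each column taken as 1 fragment, 1.11 to 2.85% of values above 0 were whole multiples of it. How reads were assigned is not given in the sources used here. Whole reads could not be recovered for most values, so no count model was used. All 14 columns (0 sample columns were left unused) were rescaled together by trimmed means of log ratios. Genes with a rescaled value of at least 10 in at least 3 libraries were tested (13224), leaving out 26 names turned into dates and 4 entries with repeated names. limma 3.58.1 (R 4.3.3) with a variance trend was fitted to log2(value + 1) of the 8 TAC libraries, two-sided, with Benjamini-Hochberg adjustment over all genes tested; fold changes of low genes are understated on this scale. ± is the standard error of the log2 difference. The fit was tested on simulated data. Every adjusted p is limma's. Genes named are Jph2, a fixed set of overload genes, the 12 largest non-overlapping called changes in each direction, the 10 lowest adjusted p, up to 4 called members of a list (or its 2 most abundant where none was called), and the 10 genes each that lose or gain their call most without TAC+JP2NT replicate 4, of which examples are given; Clu, Fgl2, Notch3, Kdr, Pecam1, Retreg1, Rtn4r and the genes that set replicate 4 apart were chosen after their values were seen. 2 called genes are not reported here. The members and lists were chosen with earlier results of these data known. Alternatives covered scaling, pseudocount, filter, variance model and each library left out. Fragment numbers are estimates, so no counting interval is given.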

Additional observations from a re-analysis of the deposited data

Results flagged for a closer look

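Among 148 sets of 4 TAC values of the named genes, 9 held a sample far from the other 3. Chance gives about 1 in 20 for genes not chosen by their values. Many of the named genes were chosen by theirs, so this count cannot be judged against that rate. TAC+JP2NT replicate 4 was that sample for Myh7b (998), Col6a3 (658) and Scml4 (35.7). Col6a3 and Scml4 were named because they passed without that replicate and not with it, so their place here was partly fixed by the choice. TAC+JP2NT replicate 3 was for Notch3 (582), Hk1 (2470) and Ier3 (290.3). TAC+GFP replicate 3 stood apart for Jph2 (6615) and Plvap (437), and TAC+GFP replicate 1 for Kdr (2267). Over all genes tested, TAC+JP2NT replicate 4 stood apart in 3.09% and TAC+GFP replicate 3 in 2.44%. Each other TAC library did so in 0.605 to 1.69%.

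The vector effect differed between TAC and sham hearts, by a test of the interaction over all 4 groups, in 10 genes. The difference of the log2 effects was 1.35 for Scn4b (limma adjusted p = 0.00869), 0.88 for Mylk4 (0.00869), -1.06 for Eif4ebp1 (0.00869), -1.25 for Efhd2 (0.0247) and 2.6 for Rtn4r (0.0247). It was -0.98 for Gpx3 (0.0402), 0.70 for Cpox (0.0402), -0.85 for Hist1h1c (0.0476), -0.90 for Retreg1 (0.0476) and 1.27 for Gal3st3 (0.0476).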

How the results depend on the processing

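The 157 calls became 817 with 1 spread over all 4 groups, 430 with a spread per group, 1336 with a weight per library, 471 on the values as deposited, 17 with no variance trend and 3 with replicates 1 and 2 averaged. Leaving out 1 library gave 8 to 277. On the values as deposited, which shift all genes by a median of -0.0791, the split was 427 lower and 44 higher, against 113 and 44. Same-numbered TAC libraries correlated at 0.0445, -0.0321, -0.169 and 0.00746 in their deviations from the group means. No TAC+JP2NT library correlated best with its own number. These values show no pairing number by number, and they do not test a block shared by replicates 1 and 2. The replicate block gave 79 calls, 56 of them among the 157. The alternatives chosen after seeing the data gave 2060 calls in replicates 1 and 2 and 0 in replicates 3 and 4. Interaction calls moved from 10 to 77 with a spread per group and 111 with all 14 libraries kept apart. The gap on principal component 1 ranged from -24.5 to -14.4 when 1 library was left out, where p cannot go below 0.0571. Jph2 was -0.037 on the values as deposited, and Acta1 -0.10 with library weights; without 1 library Acta1 ranged from -0.26 (without TAC+GFP replicate 3) to 0.29. The 56 called genes named gave 1230 values under 22 alternatives, of which 877 kept direction and call, 353 lost the call and 0 changed sign; 36 of 1647 list medians moved beyond the spread of libraries. With a minimum value of 50, the T and NK cell, B cell and neutrophil lists had no gene left. The causes of these changes were not tested. Fragments per library limit genes of low value, such as Ccl11.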
